A study of Mus musculus with 12 samples.

Results

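Mitosis and G2/M genes are the genes a dividing cell switches on to condense, attach and part its chromosomes. A list of 35 of them was followed in mouse keratinocytes (the epithelial cells that make up most of the epidermis) kept in culture, with and without the autophagy gene Atg7 and with and without paraquat. The members were taken by name, and each was read from the probe set annotated to it alone, the brightest on average where a gene had several. Of the 35 genes, 34 were measured, among 22180 genes in all. Ccnb1 was not analysed here because no probe set was annotated to it alone.

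All cells carried the Atg7 f/f alleles, which Cre recombinase can delete. The wt keratinocytes were Atg7 f/f K14::Cre - and autophagy competent. The KO keratinocytes were Atg7 f/f K14::Cre + and autophagy deficient. In these Cre is driven by the promoter of the keratin K14 and so acts in keratinocytes. Each genotype, grown in KGM-2 medium, received either sham treatment or paraquat at 20 µM for 48 h before its RNA was taken. Paraquat is a weedkiller whose redox cycling makes superoxide inside cells. This made 4 groups of 3 arrays, named wt sham, KO sham, wt paraquat and KO paraquat. The study calls them biological triplicates, but the labels tie no array to an animal and give no age or sex, so the p-values speak only for the spread among these arrays, which may be partly technical.

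As background, a cell enters mitosis when Cdk1, bound to cyclins A and B, phosphorylates its targets. Aurora and Polo kinases then build the spindle, and the spindle checkpoint holds the chromosomes together until each kinetochore is attached. Cdc20 and the anaphase ubiquitin ligase end the state by destroying the cyclins. The genes for these proteins are transcribed late in the cell cycle. Repressor complexes that hold them off in resting cells and activators that include B-Myb and Foxm1 meet at a promoter element called the CHR (cell cycle genes homology region), often beside CCAAT boxes bound by NF-Y. In the epidermis, dividing keratinocytes sit in the basal layer and cells that move up to differentiate leave the cycle.

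The promoters of 5 members are printed because they show this arrangement at its clearest and where it was not found. They come from RefSeq (build GRCm38.p6), run 5′ to 3′ on the gene's strand from 150 bases before to 30 bases after the gene's annotated start, and carry in capitals every match to TTTGAA or TTTAAA (the CHR forms searched) or to CCAAT, on either strand. On the opposite strand TTTGAA reads TTCAAA and CCAAT reads ATTGG, while TTTAAA reads the same on both.
Ccnb2: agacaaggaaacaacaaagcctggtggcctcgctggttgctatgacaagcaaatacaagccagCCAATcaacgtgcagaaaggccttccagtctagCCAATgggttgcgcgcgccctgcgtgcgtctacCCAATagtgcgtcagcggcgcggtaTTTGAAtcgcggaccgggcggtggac
Cdk1: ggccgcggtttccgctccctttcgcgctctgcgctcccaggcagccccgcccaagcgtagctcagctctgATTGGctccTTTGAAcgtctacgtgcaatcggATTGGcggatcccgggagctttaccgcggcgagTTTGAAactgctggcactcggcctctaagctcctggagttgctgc
Hmmr: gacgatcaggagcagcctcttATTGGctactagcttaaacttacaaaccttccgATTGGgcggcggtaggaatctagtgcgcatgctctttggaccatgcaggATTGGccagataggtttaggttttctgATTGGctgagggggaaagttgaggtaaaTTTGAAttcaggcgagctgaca
Depdc1a: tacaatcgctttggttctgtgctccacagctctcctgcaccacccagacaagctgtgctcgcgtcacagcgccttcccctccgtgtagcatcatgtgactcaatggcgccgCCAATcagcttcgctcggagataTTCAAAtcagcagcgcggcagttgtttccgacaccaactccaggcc
Nusap1: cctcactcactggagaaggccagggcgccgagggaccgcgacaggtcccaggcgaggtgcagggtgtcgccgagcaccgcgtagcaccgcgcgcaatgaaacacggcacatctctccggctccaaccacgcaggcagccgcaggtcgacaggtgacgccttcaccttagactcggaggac
The Ccnb2 window (chr9:70421525-70421704, minus strand) held 3 CCAAT boxes, at -87, -54 and -21, and a TTTGAA starting 5 bases into the transcript. In the Cdk1 window (chr10:69352883-69353062, minus strand) TTTGAA stood at -71 and -15, with CCAAT boxes on the opposite strand at -80 and -48. The Hmmr window (chr11:40733408-40733587, minus strand) held CCAAT boxes at -129, -96, -47 and -20 and a TTTGAA at 9. The Depdc1a window (chr3:159495283-159495462, plus strand) held 1 of each, and the Nusap1 window (chr2:119618148-119618327, plus strand) held none.

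RefSeq windows from 250 bases before to 50 bases after the start were at hand for 27 of the 34 measured members, as 28 windows because Prc1 had 2. TTTGAA was found in 82.1% of these windows, against 45.4% of 97 windows of other mitosis genes and 17.9% of all 32851 windows. TTTAAA was found in 28.6%, 14.4% and 13.2%, and CCAAT in 78.6%, 64.9% and 37.4%. A CHR form and a CCAAT box occurred in the same window for 71.4% of member windows, 38.1% of the other mitosis windows and 10.7% of all windows. The start region set the members apart most: 78.6% of their windows had a CHR form within 50 bases of the start, against 40.2% and 8.28%. Bub1 and Nek2 had CCAAT boxes without a CHR form, and Nusap1 had none of the 3 motifs within the 300 bases. In the member windows 0 matches of different motifs overlapped. A match is a run of letters, not a bound site, and 7 measured members had no window.

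**Figure D1:**
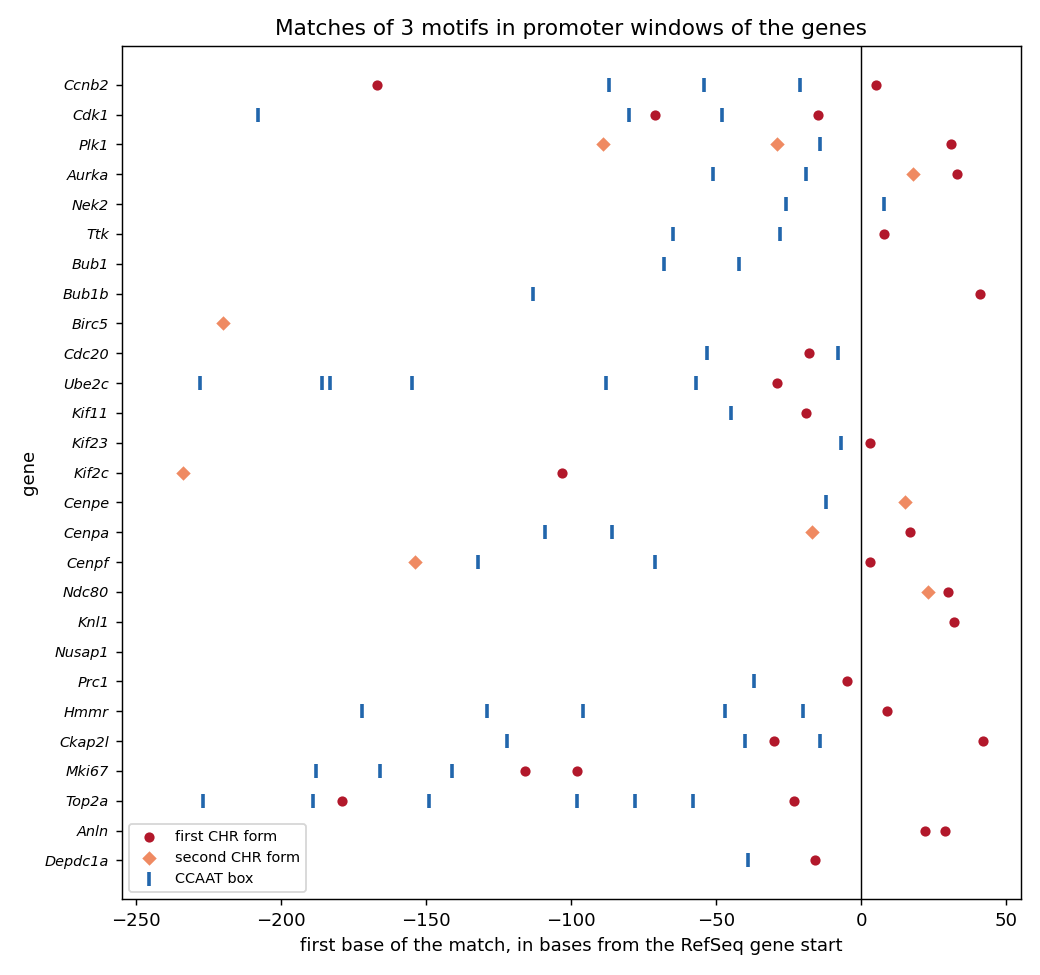
Positions of motif matches in the RefSeq promoter windows of the 27 members with a window, in bases from the annotated gene start (vertical line), 1 gene per row (for Prc1, 1 of its 2 windows). Circles and diamonds are the CHR forms and bars the CCAAT boxes; most CHR matches lie within 50 bases of the start, with CCAAT boxes upstream of them, and the Nusap1 row is empty.

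The arrays were first checked as a whole. Median signals were 42 to 45 in all 12 arrays, and precision is limited by there being 3 arrays per group. The signal of Atg7 was 293, 356 and 286 in wt sham and 105, 111 and 103 in KO sham, a log2 difference of -1.55 (limma adjusted p = 2.8e-05). Under paraquat it was 442, 442 and 457 in wt and 129, 148 and 96 in KO. Keratinocyte markers were high in every array (mean log2 signal 10.29 to 10.71). Lists for fibroblasts (4.93 to 5.33), leukocytes (5.50 to 6.04), endothelium (4.84 to 5.50) and melanocytes (5.28 to 6.43) were compared with the mean of all genes (6.09 to 6.14). The first 3 lay below it. The melanocyte list lay below it in the sham arrays and slightly above it in the paraquat arrays (6.17 to 6.43). Under paraquat, genes called higher in wt and in KO were 4 and 4 of 7 for melanocytes, 3 and 2 of 6 for endothelium, 2 and 2 of 6 for leukocytes and 1 and 1 of 9 for fibroblasts, while 5 and 4 of 9 keratinocyte markers were lower. Of all genes, 14.9% in wt and 14.5% in KO were called higher and 14.3% and 12.6% lower, so the fibroblast counts are near the background. Without wt sham 2 the wt count was 5 for melanocytes and the same as before for the other lists. Some single markers rose strongly in wt and KO, by log2 differences of 2.57 and 2.36 for Mlana (melanocytes) and 2.21 and 1.38 for Kdr (endothelium). Cd68 (leukocytes) rose by 1.64 and 1.05 and Pdgfra (fibroblasts) by 1.50 and 0.91. The part of these lists in the results below was not tested.

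The array wt sham 2 stood apart in these genes. It had the lowest signal of the wt sham arrays for 34 of 34 members, as for 28.8% of all genes, and wt sham 1 had the highest for 34 of 34 (28.3% of all genes). Relative to the mean of wt sham 1 and 3, its signal ran from 0.311 (Shcbp1) to 0.783 (Ube2c) with a median of 0.469. For 19 members it was under 0.5 of that mean, which was so for 0.239% of all genes. It lay within the range of the 6 paraquat arrays for 22 members (52.9% of all genes), below all 6 for 9 (22.9%) and above all 6 for 3 (24.1%). The coefficient of variation between the wt sham arrays had a median of 40.5% over the members (highest 55.1%), against 6.94% (highest 17.4%) in KO sham. A milder case was KO paraquat 3, the highest of its group for 32 members (32.6% of all genes). Counts that rest on wt sham are therefore given with and without wt sham 2, as are the wt differences of the members. Values with no such remark are from all 12 arrays. Each test used 1 spread per gene estimated over all 12 arrays, although wt sham and KO sham spread so differently. When only the arrays of the groups compared were fitted, fewer members passed in wt and between the sham groups, as given at the end.

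**Figure D2:**
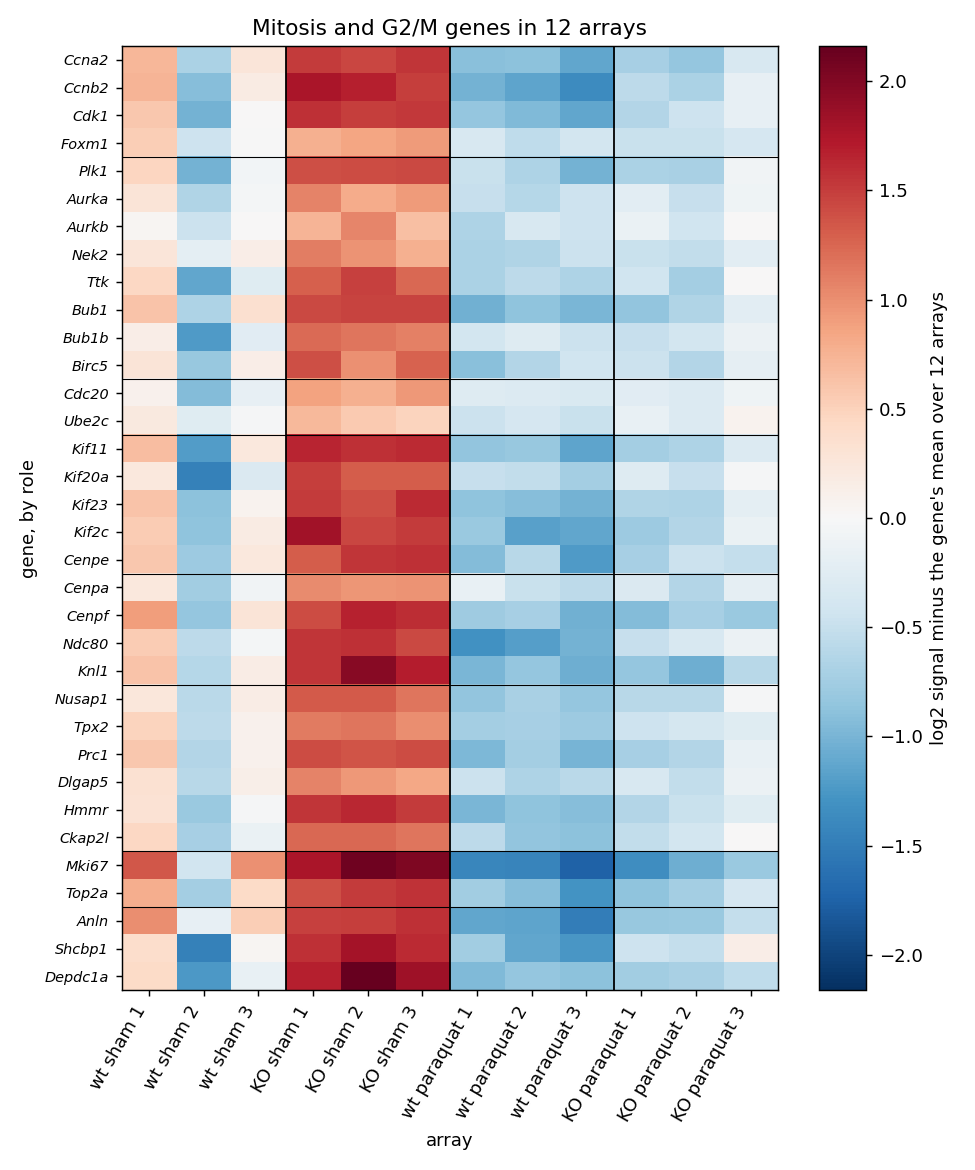
Log2 signal of each of the 34 measured members (rows, grouped by role) in each of the 12 arrays (columns), as the difference from that gene's mean over the 12 arrays, red higher and blue lower. The 3 KO sham columns are the reddest in every row, the 6 paraquat columns are mostly blue, and wt sham 2 resembles them while wt sham 1 and 3 do not.

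The first comparison asked how the genotypes differed without paraquat. In KO sham 34 of 34 members were higher than in wt sham (4.58% of all genes were called higher), with log2 differences from 0.61 for Ube2c to 2.22 for Depdc1a, a median of 1.39 and adjusted p-values from 0.000256 to 0.0203 (limma). As a ratio of mean signals the levels in KO sham were 1.52 to 4.25 times those in wt sham (median 2.45). The KO sham arrays lay above all wt sham arrays for 34 of 34 members (10.1% of all genes) and above all the other 9 arrays for 34 of 34 (4.5%). Even the lowest KO sham signal exceeded the highest wt sham signal by a median factor of 1.68, least for Foxm1 and most for Depdc1a (2.41). Without wt sham 2, 34 members remained higher (2.94% of all genes), with a median log2 difference of 1.06 and a ratio of 1.41 to 3.37. In whole cultures, more dividing cells and more RNA per dividing cell cannot be told apart, here and in the comparisons that follow.

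The next 2 comparisons asked what paraquat did in each genotype. In KO cells 34 of 34 members fell (12.6% of all genes fell), by a median of 1.90 on the log2 scale, to between 12.3% (Mki67) and 61.3% (Ube2c) of the KO sham mean. Adjusted p-values were 4.03e-06 to 0.000987, and the KO paraquat arrays lay below the KO sham arrays for 34 of 34 members (17.3% of all genes). In wt cells 19 of 34 fell (14.3% of all genes) and 0 rose (14.9% of all genes), with a median log2 difference of -0.75 where the median of all genes was 0.01. The wt paraquat means were 19.8% (Mki67) to 98.7% (Cdc20) of the wt sham means, and the arrays did not overlap for 14 members (18.3% of all genes). The wt count depended on the sham arrays: it was 32 without wt sham 2 (14% of all genes), and 11 when either wt sham 1 or wt sham 3 was left out. In those last 2 fits 5763 genes (2920 of them higher) and 5583 genes (2842 of them higher) were called, of 22180. Without wt sham 2 the wt median was -1.06, the wt paraquat arrays lay below the remaining wt sham arrays for 34 members (22.5%), and the exceptions were Bub1b (-0.33, limma adjusted p = 0.09) and Cdc20 (-0.26, limma adjusted p = 0.087). Because all 34 members fell in KO, the 19 that fell in wt had to be among them, so this overlap adds nothing (8.8% of all genes fell in both). The wt and KO comparisons do not share arrays, but the genotype comparison without paraquat shares its sham arrays with both.

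Among the cyclins, Cdk1 and Foxm1, 4 of 4 measured genes were higher in KO sham, 4 fell in KO and 3 fell in wt. Here and in the roles below, counts are from all 12 arrays. The matching shares of all genes were 4.58% higher in KO sham, 12.6% falling in KO and 14.3% falling in wt. Without wt sham 2, each measured member but Bub1b and Cdc20 fell in wt (14% of all genes). Each was also higher in KO sham (2.94%). The signal of Ccnb2, a B-type cyclin that activates Cdk1, was 632, 200 and 428 in wt sham, 1286, 1212 and 1073 in KO sham, 187, 172 and 148 in wt paraquat and 255, 237 and 335 in KO paraquat. The KO sham arrays were high and wt sham 2 was near the paraquat arrays. Ccnb2 fell by 2.12 ± 0.30 (SE) in KO (adjusted p = 0.000124) and by 1.17 ± 0.30 in wt (adjusted p = 0.00873), on the log2 scale of limma; the wt fall without wt sham 2 was -1.63.

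Cdk1, the kinase that drives entry into mitosis, read 293, 97 and 197 in wt sham, 589, 554 and 569 in KO sham, 110, 102 and 90 in wt paraquat and 127, 144 and 173 in KO paraquat. Its wt sham and wt paraquat arrays overlapped through wt sham 2 alone. The wt fall of Cdk1 was -0.82 ± 0.28 (limma adjusted p = 0.0415), -1.26 without wt sham 2, and its KO fall was -1.96 ± 0.28. Ccna2, cyclin A, read 493, 185 and 357 in wt sham, 854, 816 and 873 in KO sham, 159, 162 and 138 in wt paraquat and 182, 168 and 236 in KO paraquat, so its groups of sham and paraquat arrays did not overlap in either genotype. In wt Ccna2 fell by 1.07, and by 1.46 without wt sham 2.

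Foxm1, a transcription factor of the late cell cycle, read 183, 93 and 127 in wt sham, 218, 229 and 242 in KO sham, 100, 87 and 97 in wt paraquat and 91, 91 and 99 in KO paraquat. It had a small genotype difference in sham cells (0.83 ± 0.18, limma adjusted p = 0.00899) and similar levels in both paraquat groups. In wt its difference of -0.45 did not pass (adjusted p = 0.0735); without wt sham 2 it was -0.69 and passed.

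The mitotic kinases and checkpoint genes were all higher in KO sham and all fell in KO (8 of 8). In wt 2 of 8 fell with all arrays, a small count beside the 14.3% of all genes. All but Bub1b fell in wt without wt sham 2 (14% of all genes). Plk1, the Polo kinase, read 370, 133 and 258 in wt sham, 704, 717 and 721 in KO sham, 192, 169 and 133 in wt paraquat and 168, 165 and 256 in KO paraquat. Aurka, the Aurora kinase of the spindle poles, read 283, 149 and 226 in wt sham, 489, 407 and 443 in KO sham, 166, 152 and 171 in wt paraquat and 199, 166 and 219 in KO paraquat. For both kinases wt sham 1 and 3 lay above the wt paraquat arrays and wt sham 2 at or below their lowest.

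The wt differences of Plk1 (-0.52, limma adjusted p = 0.22) and Aurka (-0.38, limma adjusted p = 0.153) did not pass; without wt sham 2 they were -0.92 and -0.64 and passed. Nek2, a kinase that separates centrosomes, and Bub1, a checkpoint kinase, fell in wt with all arrays in the fit (-0.66 and -1.07) and without wt sham 2 (-0.80 and -1.45). Aurkb and Birc5, the kinase and the survivin subunit of the chromosomal passenger complex, gave -0.35 and -0.53 in wt, which did not pass, and fell by 1.00 and 1.65 in KO. Ttk, the checkpoint kinase also called Mps1, gave -0.33 in wt (adjusted p = 0.464) and fell by 1.72 in KO. All 3 passed in wt when wt sham 2 was left out, at -0.51 for Aurkb, -0.87 for Birc5 and -0.74 for Ttk.

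Bub1b, the checkpoint protein BubR1, behaved differently from Bub1 in wt cells. It read 130, 50 and 99 in wt sham and 89, 97 and 85 in wt paraquat, so the paraquat arrays lay between the sham arrays. This rested on wt sham 2 (50), as wt sham 1 and 3 lay above the wt paraquat arrays. The wt difference of Bub1b was 0.06 with all arrays. Without wt sham 2 it was -0.33 and did not pass (limma adjusted p = 0.09), where Bub1 gave -1.45. In KO it went from 273, 262 and 248 to 83, 89 and 107, a fall of 1.50 ± 0.25 (limma adjusted p = 0.000456).

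Of the genes of the anaphase ubiquitin ligase, Cdc20, its activator, and Ube2c, the enzyme that supplies its ubiquitin, had the smallest median of any role for both responses and between the sham groups. Cdc20 read 330, 161 and 273 in wt sham, 567, 526 and 595 in KO sham, 254, 252 and 248 in wt paraquat and 263, 252 and 290 in KO paraquat. Its 6 paraquat arrays were nearly level at 248 to 290, inside the range of wt sham only because of wt sham 2 (161). The other wt sham arrays lay above the wt paraquat arrays. In wt Cdc20 gave 0.04 with all arrays and -0.26 without wt sham 2 (limma adjusted p = 0.087), and neither passed. Ube2c read 339, 246 and 289 in wt sham, 480, 438 and 410 in KO sham, 214, 230 and 210 in wt paraquat and 263, 240 and 311 in KO paraquat. Ube2c fell in wt (-0.41 ± 0.12, or -0.52 without wt sham 2) and in KO (-0.71 ± 0.12), and it was the member least affected by wt sham 2.

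**Figure D3:**
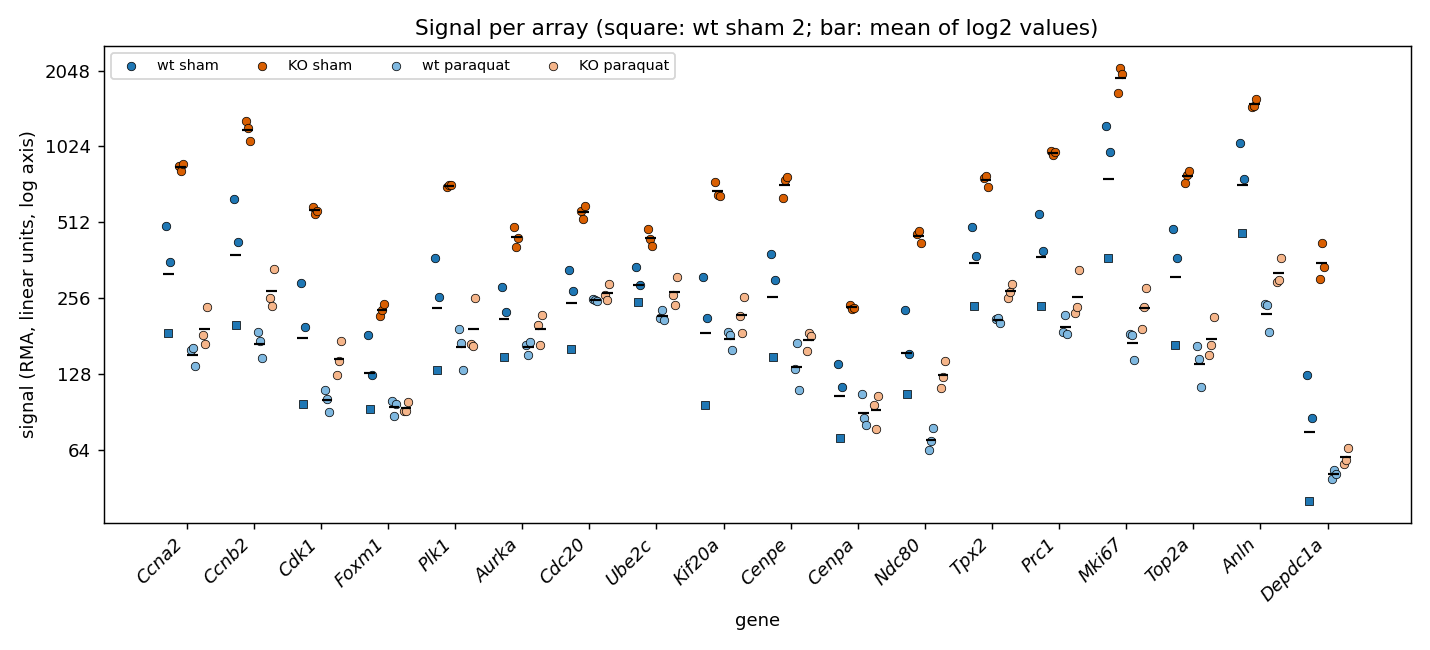
Signal (RMA, linear units on a log axis) of 18 members in every array, in the order wt sham, KO sham, wt paraquat and KO paraquat within each gene; points are arrays, the square is wt sham 2 and the bar is the mean of the log2 values. For each of the 18 genes the KO sham points lie above all others and the square is the lowest wt sham point; only for Mki67 (369) and Anln (465) is it above all 6 paraquat points.

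Kinesin motors were higher in KO sham in 5 of 5 cases and fell in KO in 5 of 5 and in wt in 3 of 5. Cenpe, the motor that brings chromosomes to the spindle equator, read 384, 149 and 302 in wt sham, 640, 750 and 772 in KO sham, 134, 169 and 110 in wt paraquat and 157, 186 and 181 in KO paraquat. Kif20a, a motor of the central spindle needed for cytokinesis, read 310, 96 and 213 in wt sham, 740, 655 and 653 in KO sham, 188, 183 and 159 in wt paraquat and 217, 186 and 259 in KO paraquat. Cenpe fell in wt (-0.93 ± 0.26, or -1.33 without wt sham 2), while Kif20a gave -0.07 ± 0.30 (limma adjusted p = 0.905), with wt sham 2 far below the wt paraquat arrays.

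Without wt sham 2 the Kif20a difference in wt was -0.54 and passed (limma adjusted p = 0.0278). Kif23, which works with the central spindle, and Kif2c, which shortens microtubules at centromeres, fell in wt by 0.87 and 0.98 and in KO by 2.01 and 2.11. Kif11, which pushes the spindle poles apart, ranged from 81 to 299 in wt sham; its wt difference of -0.84 did not pass (adjusted p = 0.0829), and in KO it fell by 2.17. With wt sham 2 left out, the wt values of Kif23, Kif2c and Kif11 were -1.28, -1.40 and -1.39, and Kif11 passed.

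Of the 4 centromere and kinetochore genes, 4 were higher in KO sham, 4 fell in KO and 3 fell in wt. Ndc80, which grips microtubules at the kinetochore, read 230, 106 and 154 in wt sham, 460, 474 and 422 in KO sham, 64, 69 and 78 in wt paraquat and 112, 124 and 144 in KO paraquat. Its 2 paraquat groups did not overlap, the KO arrays being higher. Cenpa, the histone H3 variant that marks centromeres, read 140, 71 and 113 in wt sham, 241, 232 and 233 in KO sham, 106, 85 and 80 in wt paraquat and 96, 77 and 104 in KO paraquat, with both paraquat groups level.

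In wt Ndc80 fell by 1.15, while Cenpa gave -0.21 (limma adjusted p = 0.504). Knl1, a scaffold of the outer kinetochore, fell in KO from 324, 434 and 360 to 62, 53 and 73, more than any member but Mki67 (-2.57 ± 0.24, limma adjusted p = 4.03e-06). Cenpf, a large kinetochore-associated protein, fell by 2.38 in KO and by 0.96 in wt, where Knl1 fell by 1.01. The wt values of Ndc80, Knl1 and Cenpf without wt sham 2 were -1.42, -1.35 and -1.43, and that of Cenpa was -0.49 and passed (limma adjusted p = 0.028).

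The proteins that organise spindle microtubules were higher in KO sham and fell in KO in 6 of 6 cases and fell in wt in 4 of 6. Tpx2, which activates Aurka on the spindle, read 492, 238 and 375 in wt sham, 766, 783 and 706 in KO sham, 211, 214 and 203 in wt paraquat and 257, 271 and 292 in KO paraquat. Prc1, which bundles the microtubules of the central spindle, read 550, 238 and 394 in wt sham, 978, 945 and 973 in KO sham, 188, 220 and 184 in wt paraquat and 223, 236 and 330 in KO paraquat. For both genes all wt sham arrays, wt sham 2 included, lay above the wt paraquat arrays. In wt Tpx2 fell by 0.75 and Prc1 by 0.92, or by 1.04 and 1.24 without wt sham 2.

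Nusap1, a microtubule-bundling protein whose promoter window above held no motif match, fell by 0.74 in wt and 1.68 in KO. Hmmr, a spindle protein also known as a hyaluronan receptor, read 146, 67 and 116 in wt sham, 342, 362 and 333 in KO sham, 59, 64 and 62 in wt paraquat and 76, 84 and 98 in KO paraquat. It fell by 0.76 in wt and 2.01 in KO. Dlgap5 and Ckap2l, which bind spindle microtubules, gave -0.52 and -0.63 in wt, just missing the threshold (limma adjusted p = 0.0525 and 0.053), and fell by 1.28 and 1.52 in KO. All 4 passed in wt when wt sham 2 was left out, Hmmr at -1.08, Dlgap5 at -0.79 and Ckap2l at -0.92.

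The chromosome proteins Mki67 and Top2a changed in every test of the 2 responses and the sham genotypes. Mki67, the Ki-67 antigen that coats mitotic chromosomes and marks cycling cells, read 1239, 369 and 969 in wt sham, 1671, 2105 and 1980 in KO sham, 184, 182 and 145 in wt paraquat and 193, 235 and 281 in KO paraquat. Every wt sham array, wt sham 2 included, lay above all 6 paraquat arrays. Mki67 had the largest fall of the members in both genotypes, -3.03 ± 0.33 in KO (limma adjusted p = 1.38e-05) and -2.17 ± 0.33 in wt (limma adjusted p = 0.00017), while its genotype difference in sham cells (1.32 ± 0.33, limma adjusted p = 0.0203) had the highest adjusted p of the members. Its wt fall was -2.69 without wt sham 2, and its sham genotype difference 0.80 (limma adjusted p = 0.0172).

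Top2a, the topoisomerase that untangles sister chromatids, read 479, 167 and 370 in wt sham, 733, 791 and 820 in KO sham, 165, 146 and 113 in wt paraquat and 152, 166 and 215 in KO paraquat. It fell by 1.15 in wt (1.59 without wt sham 2) and 2.15 in KO, and wt sham 2 was just above the wt paraquat arrays.

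Of the remaining 3 genes, Anln, the cytokinesis scaffold anillin, read 1053, 465 and 762 in wt sham, 1474, 1478 and 1576 in KO sham, 242, 239 and 187 in wt paraquat and 297, 301 and 368 in KO paraquat. Like Mki67, it separated sham from paraquat in wt with wt sham 2 included (-1.70 ± 0.22, limma adjusted p = 4.61e-05). Depdc1a, a gene of mitotic cells whose molecular role is less settled, read 126, 40 and 85 in wt sham, 304, 424 and 339 in KO sham, 49, 53 and 51 in wt paraquat and 56, 58 and 65 in KO paraquat. It had the largest genotype difference in sham cells (2.22 ± 0.29, limma adjusted p = 0.000456), but its wt difference under paraquat (-0.56) did not pass (limma adjusted p = 0.185). Shcbp1, a protein linked to the midbody, read 118, 33 and 94 in wt sham and 54, 42 and 38 in wt paraquat, and its wt difference of -0.70 did not pass. The wt values of Anln, Depdc1a and Shcbp1 without wt sham 2 were -2.02, -1.02 and -1.25, all past the threshold, and the sham genotype difference of Depdc1a was 1.77. The lowest group means were those of Birc5 (33.7 in wt paraquat and 39.3 in KO paraquat) and Shcbp1 (44.7 in wt paraquat), at the level of the array medians, where a fold rests on signal not shown to be above background. Means not far above those medians in wt and KO paraquat included Depdc1a (51.0 and 59.7), Cenpf (51.7 and 52.3) and Knl1 (57.0 and 62.7). The sizes of their falls carry a similar limit.

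**Figure D4:**
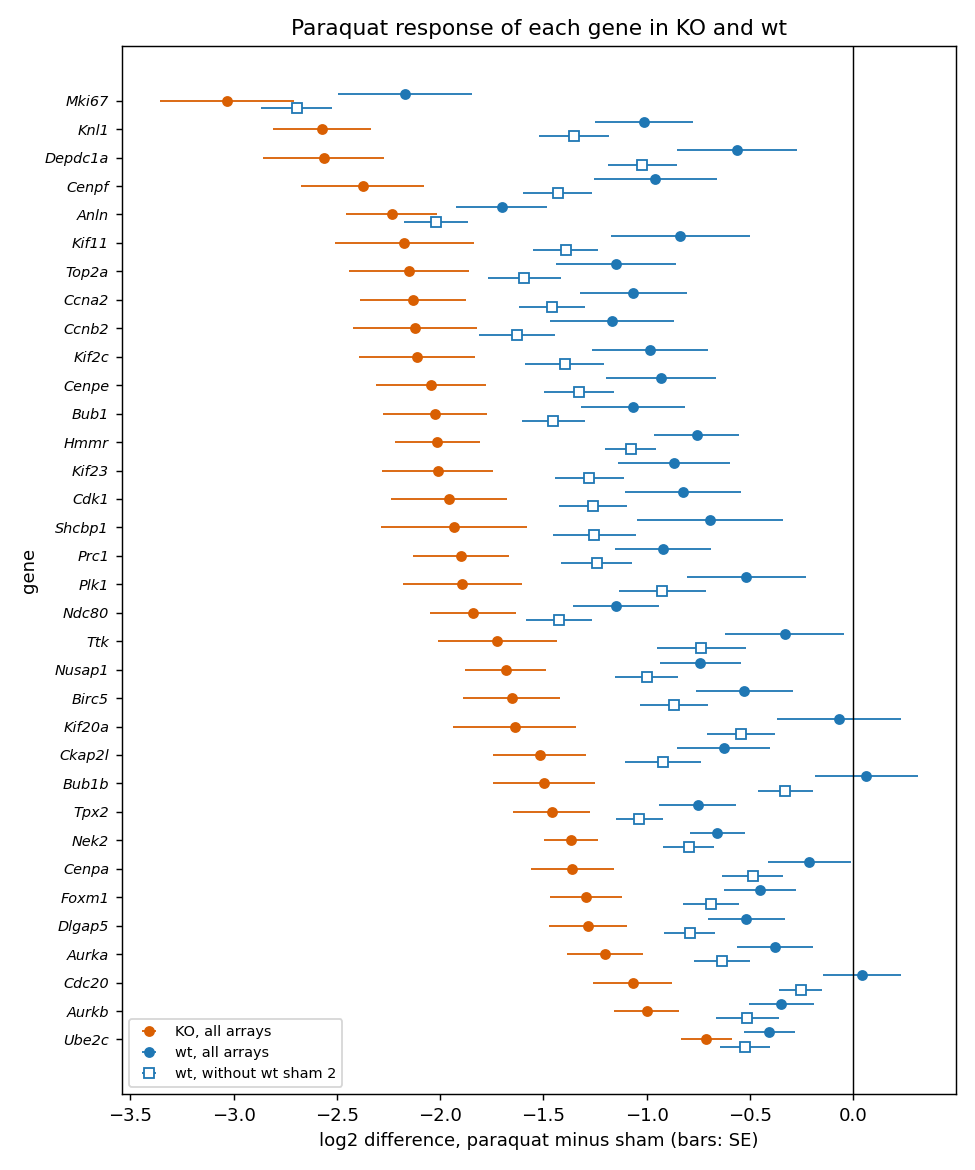
Log2 difference between paraquat and sham for each of the 34 members (rows, ordered by the KO response), in KO (orange circles), in wt with all arrays (blue circles) and in wt without wt sham 2 (open squares); bars are the standard errors of the fit. Each orange circle lies further from 0 than the blue marks of its row, and the open squares lie to the left of the blue circles for all 34 genes.

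Under paraquat the genotypes were closer than in sham cells, with KO still the higher for most members. Of 34 members, 0 were called between KO paraquat and wt paraquat (0.0992% of all genes were called higher and 0.451% lower in KO), with 6 at an unadjusted p under 0.05 (limma). The KO mean was 0.989 (Foxm1) to 1.80 (Ndc80) times the wt mean, with a median of 1.26, and 33 of 34 differences lay above 0. KO arrays lay above all wt arrays for 18 members (7.94% of all genes). Ndc80 came nearest to a call, with 0.85 ± 0.21 (limma adjusted p = 0.101), and without wt sham 2, which changes only the estimate of the spread here, its adjusted p was 0.024 and it was called higher, as 0.194% of all genes were. The mean log2 signal over the members was 6.74, 6.73 and 6.61 in wt paraquat and 6.91, 6.91 and 7.27 in KO paraquat, so the highest value was that of KO paraquat 3. The median log2 difference of the members was 0.34, and 0.20 without KO paraquat 3. A p that misses the threshold does not show that the genotypes had the same level.

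The last comparison tested whether the responses differed, as KO response minus wt response. The difference was below 0 for 34 of 34 members, with a median of -1.09, and passed for 5 (0.897% of all genes were called lower). These were Depdc1a (-2.00 ± 0.41, adjusted p = 0.0246), Knl1 (-1.56 ± 0.34, adjusted p = 0.0305), Bub1b (-1.56 ± 0.35, adjusted p = 0.0368), Hmmr (-1.26 ± 0.29, adjusted p = 0.0438) and Cdc20 (-1.11 ± 0.27, adjusted p = 0.0498), all by limma. Of the other 29, 26 had an unadjusted p under 0.05. Without wt sham 2 the median was -0.68 and 6 passed (0.64% of all genes), namely these 5 and Kif20a (-1.10). The count was 23 without wt sham 1, 1 without wt sham 3 and 1 without KO paraquat 3. It was 2 without KO sham 1 and 0 without any 1 of KO sham 2 or 3, wt paraquat 1, 2 or 3, or KO paraquat 1 or 2. This difference is the sham genotype difference set against the paraquat one, so the higher KO sham level enters it directly. For the members it equals the paraquat genotype difference (median 0.34) less the sham one (median 1.39). The wt and KO paraquat means of Depdc1a (51.0 and 59.7) and Knl1 (57.0 and 62.7) were not far above the array medians of 42 to 45. The limit given above for their falls holds for these differences too. The part of a signal floor was not tested.

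A wider list of 103 other mitosis genes, of which 95 were measured, ran the same way with smaller changes. In KO sham 77 were higher than in wt sham and 0 lower, in KO 81 fell and 4 rose, and in wt 41 fell and 10 rose. With wt sham 2 left out, 65 were higher in KO sham and 0 lower, and in wt 60 fell and 7 rose. Their median log2 difference was 0.85 between the sham groups (0.66 without wt sham 2), -0.99 for the KO response and -0.35 for the wt response (-0.57 without wt sham 2). Of all genes, 4.58% were higher in KO sham (2.94% without wt sham 2). In KO 12.6% of all genes fell and 14.5% rose, and in wt 14.3% fell (14% without wt sham 2) and 14.9% rose. The rises in the whole list were no more frequent than these shares, which also serve as background for its parts below. The genes named below are those with the smallest p, which need not have the largest change. Between the paraquat groups 0 of the list were called, or 1 without wt sham 2. The responses differed for 17, all lower in KO (0.897% of all genes), and again for 17 without wt sham 2 (0.64%).

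Among 25 other kinetochore and checkpoint genes 21 fell in KO and 8 in wt (13 without wt sham 2). Nuf2, the partner of Ndc80, fell by 2.27 and 1.12, and Spdl1, which brings dynein to the kinetochore, fell by 1.34 in KO. Spc25, of the same complex as Nuf2, rose instead, by 1.15 ± 0.12 in wt and 0.50 ± 0.12 in KO (limma adjusted p = 9.25e-06 and 0.00746). Ska3 and Ska1, which track microtubule ends at the kinetochore, were 1.60 and 0.94 higher in KO sham.

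Among 21 other kinesins and spindle genes, 17 fell in KO and 9 in wt (12 without wt sham 2); the smallest p-values for a fall were those of Kntc1 (-1.95) and Kif18a (-1.88) in KO and Haus1 (-0.87) in wt. Here 6 genes rose in wt, or 4 without wt sham 2. Gtse1, a microtubule-binding protein that is also a p53 target and regulator, rose by 1.65 ± 0.10 in wt and 0.90 ± 0.10 in KO (limma adjusted p = 4.29e-08 and 1.33e-05). Besides Gtse1 and Spc25, the genes of the wider list that rose in KO were Psrc1 (0.74 in wt and 0.38 in KO) and Cdc16 (0.43 and 0.47); these were singled out after their values were seen. Kifc1, a minus-end kinesin, was 1.14 higher in KO sham and had the smallest p of the list for the difference of responses (-1.24 ± 0.18, limma adjusted p = 0.00329).

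Of 18 condensin, cohesin and separation genes, 17 fell in KO and 10 in wt (15 without wt sham 2), among them the condensin subunits Ncapg2 (-1.85) and Ncapd2 (-1.56) in KO and Smc4 (-1.14) and Ncapd3 (-0.77) in wt. Esco2, which acetylates cohesin, was 1.66 higher in KO sham. Of 8 chromosomal passenger and cytokinesis genes, 8 fell in KO and 5 in wt (8 without wt sham 2). Iqgap3 fell by 1.86 and 1.34 and Cit, the citron kinase of the midbody, by 1.35 and 0.67, while Cdca8, the passenger subunit borealin, and Cep55, a midbody protein, were 1.11 and 1.85 higher in KO sham. Of 23 genes of mitotic entry and exit, 18 fell in KO and 9 in wt (12 without wt sham 2), among them Cdc25b, a phosphatase that activates Cdk1 (-1.25 in KO and -1.10 in wt), Fbxo5, an inhibitor of the anaphase ligase (-1.69 in KO), and Ube2s, which works with Ube2c (-0.68 in wt). Sass6, a centriole protein, and the kinase Melk were 1.03 and 1.34 higher in KO sham.

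The regulators of mitotic transcription, of which 23 were measured, had smaller median changes than the members (-0.05 in wt, -0.27 in KO and 0.17 between the sham groups). In wt 4 rose and 5 fell, in KO 3 rose and 12 fell, and 9 were higher and 1 lower in KO sham. These counts were 4 and 7 in wt, and 6 and 0 between the sham groups, without wt sham 2. Of all genes, 14.9% rose and 14.3% fell in wt, and 14.5% rose and 12.6% fell in KO. Between the sham groups 4.58% were higher and 5.67% lower in KO. The wt counts, the rises in KO and the 1 gene lower in KO sham were thus near the background. The gene called lower in KO sham was Cdkn1a, the Cdk inhibitor p21, which read 4226, 5116 and 4207 in wt sham, 3972, 3431 and 3206 in KO sham, 7381, 7100 and 7290 in wt paraquat and 7285, 6839 and 7215 in KO paraquat. Its order over the groups was the reverse of that of the members, with KO sham lowest and both paraquat groups highest. Its sham genotype difference was -0.35 (limma adjusted p = 0.0388), but without wt sham 2 it was -0.26 and did not pass (limma adjusted p = 0.148). Cdkn1a rose by 0.69 ± 0.10 in wt and 1.01 ± 0.10 in KO, and wt sham 2 was the highest wt sham array.

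Lin9, a core subunit of the complex that binds the CHR, moved in opposite directions. It rose by 0.62 ± 0.09 in wt and fell by 0.56 ± 0.09 in KO, and the difference of responses was -1.18 ± 0.12 (limma adjusted p = 0.000344). Lin54, the subunit that contacts the CHR itself, fell by 0.68 in KO. E2f7, a repressor of the E2F family, was 0.80 higher in KO sham, and Tfdp2, a partner of the E2F factors, fell by 1.02 in wt.

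Levels of neighbouring programmes were set beside the members. The mean log2 signal of the members was 7.99, 6.72 and 7.59 in wt sham, 8.84, 8.86 and 8.82 in KO sham, and 6.61 to 7.27 in the paraquat arrays. For 25 DNA replication genes it was 7.70, 7.20 and 7.57 in wt sham, 8.28, 8.23 and 8.27 in KO sham, and 7.06 to 7.39 in the paraquat arrays. The members thus spanned a wider range, and in both lists KO sham was highest and wt sham 2 lowest of wt sham. Of the replication genes 22 were higher in KO sham (19 without wt sham 2), 23 fell in KO and 15 in wt (17 without wt sham 2). Of all genes, 4.58% were higher in KO sham (2.94% without wt sham 2), 12.6% fell in KO and 14.3% in wt (14%). Mcm2, a subunit of the replicative helicase, fell by 0.88 in wt and 1.09 in KO.

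Genes of suprabasal differentiation mostly ran the other way. Their mean log2 signal was 8.88, 9.11 and 8.93 in wt sham, 8.70, 8.70 and 8.47 in KO sham, 9.99, 10.03 and 9.87 in wt paraquat and 9.54, 9.54 and 9.34 in KO paraquat. Of 16 genes, 11 rose (14.9% of all genes) and 3 fell (14.3%) in wt, and 12 rose (14.5%) and 3 fell (12.6%) in KO. The lowest log2 differences were -1.40 in wt and -1.62 in KO. Between the sham groups 5 were lower (5.67% of all genes) and 0 higher in KO. The wt counts were again 11 and 3 without wt sham 2, and 4 were lower in KO sham. Ivl, the envelope protein involucrin, rose by 2.73 in wt and 2.32 in KO, and Dsc1, a desmosomal cadherin of upper layers, was 1.59 lower in KO sham. The genes of this list that fell are not named. Between the paraquat groups 4 were lower in KO (0.451% of all genes) and all 16 differences lay below 0. The median genotype difference was -0.31 in sham (-0.21 without wt sham 2) and -0.43 under paraquat. It did not narrow as that of the members did, from 1.39 (1.06 without wt sham 2) to 0.34. In wt sham 2 this list was the highest of its group where the mitosis list was the lowest. The part of differentiation in the mitosis result was not tested.

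**Figure D5:**
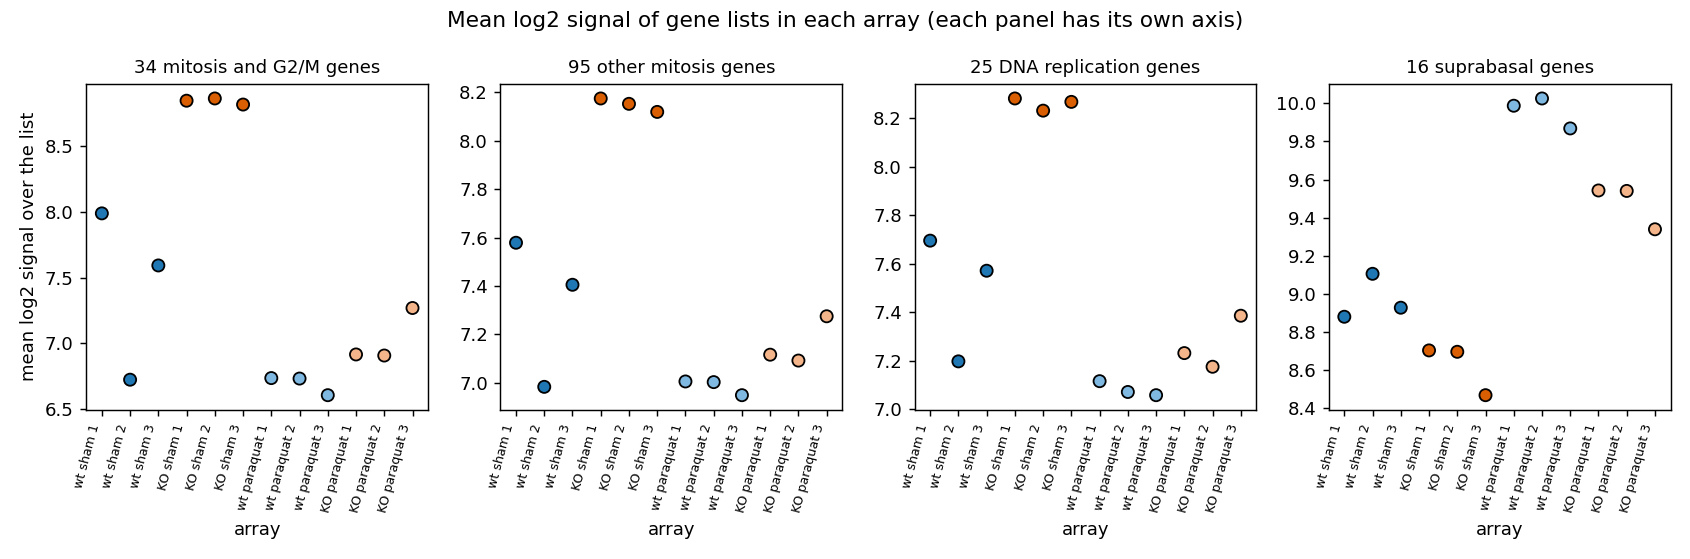
Mean log2 signal in each of the 12 arrays for the 34 members, 95 other mitosis genes, 25 DNA replication genes and 16 suprabasal genes, each panel with its own vertical axis; dark blue and dark orange are wt and KO sham, light blue and light orange wt and KO paraquat. In the first 3 panels KO sham is highest (8.82 to 8.86 for the members) and wt sham 2 (6.72) is near the paraquat arrays; in the suprabasal panel the paraquat arrays are highest.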

How the data were processed

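Total RNA was hybridised to 12 Affymetrix arrays, 1 per sample. The intensity of each probe set was, per the submitters' processing notes, computed by the authors with RMA (Affymetrix Expression Console, version 1.3.1.187). As deposited, these intensities run from 3 to 17695 in whole numbers, so they were read as linear RMA signals and log2 was taken here. The annotation build is not given in the sources used here. Of 41345 probe sets, 23521 had 1 gene symbol, 1814 several and 16010 none. Where a gene had more than 1 (1082 genes), the highest mean was used, leaving 22180 genes with no filter.

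Using limma 3.58.1 (R 4.3.3), 4 group means were estimated from the 12 arrays together. Tests were 2-sided, p-values were adjusted over all genes (Benjamini-Hochberg), and an adjusted p under 0.05 counted as a call. SE is that of the fit. Members given in every array were the 2 brightest of each role and Mki67, Foxm1 and Cdk1. Bub1b was given too because its wt difference went against its role with all arrays in the fit. Hmmr was added after its values were seen, and other members are given in part. Of each other list the 2 genes with the smallest p were taken. Members and lists were chosen with earlier results of these data known, so counts over them are descriptions. Alternatives were rescaling, 16 added before the log2, a dim-gene filter, probe-set means, a variance trend, array weights, fewer arrays, a replicate block and leaving out arrays.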

Additional observations from a re-analysis of the deposited data

Results flagged for a closer look

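The responses of the genotypes to paraquat differed for 5 members by limma's test of the difference itself (KO response minus wt response). On the log2 scale these were Depdc1a (-2.00), Knl1 (-1.56), Bub1b (-1.56), Hmmr (-1.26) and Cdc20 (-1.11). In Bub1b and Cdc20 the wt difference lay near 0 with all arrays (0.06 and 0.04), and in Knl1 and Hmmr both genotypes fell. The paraquat signals of Depdc1a and Knl1 were not far above the array medians, which limits the sizes of their differences. The difference was below 0 for 34 of 34 members, and the count that passed moved between 0 and 23 with the array left out.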

How the results depend on the processing

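The 34 falls in KO held under each of the 10 other settings run and each array left out. The 34 higher levels in KO sham ranged from 33 to 34 with 1 array left out and were 25 when only the 6 arrays compared were fitted. The 19 falls in wt became 32 without wt sham 2 and KO paraquat 3 together, 8 from the 6 arrays compared, and 11 to 32 with 1 array left out. For the wt response 6480 of all 22180 genes were called (3311 higher) in the main fit. From the 6 arrays compared it was 5844 (3000 higher). Between the paraquat groups the count of 0 became 1 with array weights and 0 to 1 with 1 array left out. The 5 differences of responses became 8 with dim genes left out, 9 without wt sham 2 and KO paraquat 3 together, and 0 to 23 with 1 array left out. Over all genes, 508 differences of responses were called, against 894 with dim genes left out, 882 with 16 added and 783 with a variance trend. Between the paraquat groups 122 were called, against 228, 231 and 223 under the same settings, 249 with array weights and 3 from the 6 arrays compared; between the sham groups 2273 were called, against 976 from the 6 arrays compared. No member changed direction past the threshold under any setting run. With the replicate number as a block the counts were 21 in wt, 34 in KO, 34 between the sham groups, 0 between the paraquat groups and 5 for the responses. Same-numbered arrays did not deviate together (correlations -0.0719 to 0.0902 over 12 pairs), so the numbers were not taken to pair arrays. The causes were not tested. With 3 arrays a group, and wt sham spread widely, small differences could not be resolved.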
